A study of Sus scrofa with 12 samples.

Results

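Pig granulosa cells from the follicle were compared with the cells that grew out of them in culture, called dedifferentiated granulosa cells. Of the 12 arrays in the series, 6 belong to this comparison, chosen by their titles: 3 of granulosa cells from ovarian follicles (GC) and 3 of granulosa cells that had dedifferentiated in vitro and were then grown until the dish was partly covered (DFOG). The other arrays, used here for the shared estimate of the spread and for 1 later comparison, hold mature adipocytes from fat tissue (MA, n = 3) and fat cells dedifferentiated by ceiling culture (DFAT, n = 3). RNA was labelled by amplification from the 3′ end and read on the Affymetrix porcine array, which gives 1 log2 value for each probe set. The study asked which genes and functions go up or down as the cells dedifferentiate. Follicle size, cycle stage, culture time, passage and the number of animals are not in the labels. The labels call the arrays biological replicates without naming animals or cultures, so a p-value here sets a change against how these arrays varied, which may be technical variation in part. All DFOG samples were cultured and the labels name no culture for GC, so dedifferentiation and culture as such cannot be told apart.

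Granulosa cells line the ovarian follicle around the oocyte. Under follicle-stimulating hormone they turn androgens from the neighbouring theca cells into oestradiol, secrete the hormone inhibin, and are coupled to each other and to the oocyte by gap junctions. After ovulation they become the luteal cells that make progesterone. They are epithelial-like cells, and in the follicle their layer rests against a basement membrane without making a fibrous matrix of its own.

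DFOG arrays 2 and 3 were nearly identical. Their log2 levels differed with an SD of 0.07 over all probe sets, where 11 other pairs of arrays from 1 group gave 0.31 to 0.62, so they were averaged and DFOG has n = 2. Among the GC arrays the first stood apart: its SD of differences from the others was 0.51 and 0.54, while those 2 differed by 0.31. Its 28S ribosomal RNA control lay at 6.65 against 9.78 and 11.1. The values below are log2 levels of single samples, in the order GC 1, 2 and 3, then DFOG 1 and the mean of DFOG 2 and 3. Differences are log2 DFOG minus GC with the standard error of the fit, and a gene rose or fell where limma's adjusted p, taken over all 23999 probe sets, was under 0.05. A gene with several probe sets was read by the 1 with the highest mean level, and the mean over its probe sets is given as well where it moves the change by more than 1.5 times. Without detection calls, expression at a low level and background look the same.

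By that rule 5971 probe sets changed, 24.9% of those tested, 2958 up and 3013 down. Of the 6765 named genes 2070 changed (30.6%), 1166 up (17.2%) and 904 down (13.4%), and the median change over all genes was 0.03. The counts given below for gene lists are to be read beside these shares. In 57% of genes the GC and DFOG samples did not overlap, so a lack of overlap in a single gene says little here. At least 2-fold rises were called in 788 genes (11.6%) and such falls in 565 (8.35%). A change of at least 16-fold was more common upward: 100 genes rose that much (1.48%) and 32 fell that much (0.473%). This balance rests on the scaling of the arrays to 1 common distribution. The median of the poly-A controls, transcripts added during labelling, was 0.70 higher in DFOG (exact permutation p = 0.1, the smallest that 3 against 2 samples allow), and centring the arrays on them lowers every change by about that much. Then 1193 probe sets rose and 9059 fell, so that 11.6% of the called ones were up in place of 49.5%. Changes below are therefore relative to the rest of the RNA that was hybridised, and a rise of less than 0.70 would change sign under that centring. The actin 3′ minus 5′ control, which is larger where RNA is shorter, averaged 1.35 in GC and 0.39 in DFOG (exact permutation p = 0.2). Its part in the results was not tested beyond a fit with it as a covariate, in which 1346 of the 2070 genes kept their call. Without DFOG 1, which leaves a single DFOG sample assumed to vary like the other groups, 1284 genes were called, 760 up and 524 down.

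**Figure D1:**
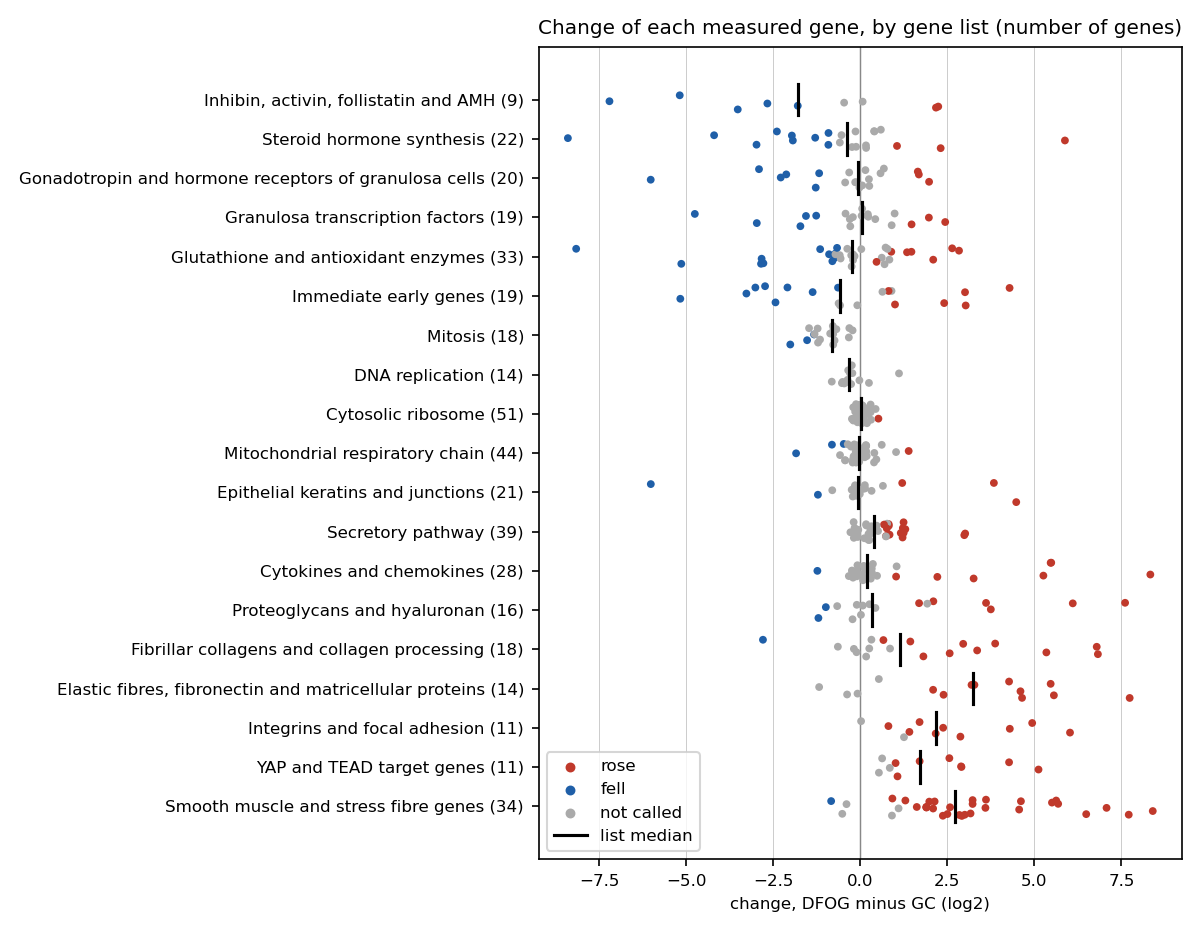
Change of each measured gene (DFOG minus GC, log2, x axis) in 19 gene lists (rows, number of genes in brackets), with genes that rose in red, genes that fell in blue, genes not called in grey and a black bar at each list's median. The smooth muscle list sits to the right with a median of 2.71, the inhibin list to the left at -1.80, and the 51 ribosomal protein genes stay near 0. The median of the inhibin list is the change of GDF9, an oocyte gene in that list.

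Inhibin and follistatin, hormones that granulosa cells send out, fell. In the list of inhibin, activin, follistatin and anti-Müllerian hormone genes, 2 of 9 measured genes rose and 5 fell, with a median change of -1.80, against 17.2% up and 13.4% down over all genes. INHA, the alpha subunit of inhibin, lay at 14.85, 14.64 and 14.43 in GC and at 7.59 and 7.28 in DFOG, a difference of -7.20 ± 0.29 (SE, limma adjusted p = 3.30e-08) or 148-fold. FST, the follistatin that binds activin, lay at 13.90, 13.93 and 13.37 in GC and at 8.47 and 8.63 in DFOG (-5.19 ± 0.36). The samples of the 2 groups lay far apart for both genes. INHBB, a beta subunit shared by inhibin and activin, spread more widely in GC, at 9.19, 6.90 and 6.73 in GC and at 4.25 and 3.93 in DFOG (-3.52 ± 0.56 SE, limma adjusted p = 7.93e-04), and the first GC array lay highest. Its other probe set was not called, and the mean over both fell by 1.86. AMH, the anti-Müllerian hormone of small follicles, fell by 2.67. The other beta subunit, INHBA, lay at 8.26, 7.76 and 7.88 in GC and at 7.42 and 7.59 in DFOG and did not pass (limma adjusted p = 0.198). The risers were FSTL3, a second activin-binding protein (2.24 ± 0.31), and BMP4, a growth factor that theca cells are known to make (2.17 ± 0.22). GDF9, the oocyte growth factor, fell from 7.53 to 5.73 (-1.80 ± 0.18), and BMP15, the other oocyte factor, did not pass the test. Both oocyte factors are in the list. GDF9 is thus 1 of its 5 falls, and the list median of -1.80 is the change of GDF9 itself. In bulk RNA of this kind fewer cells of a type and less RNA per cell cannot be told apart.

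Receptors for the hormones that drive the follicle moved in both directions. Among receptor genes of granulosa cells 3 of 20 measured genes rose and 6 fell, against 17.2% up and 13.4% down over all genes. Their median change was -0.07. LHCGR, the luteinising hormone receptor that granulosa cells gain as the follicle matures, lay at 11.94, 12.19 and 11.23 in GC and at 5.51 and 6.02 in DFOG (-6.02 ± 0.29 SE, limma adjusted p = 1.26e-07). LHCGR is also on the list of theca markers. FSHR, the follicle-stimulating hormone receptor, lay at 7.66, 6.36 and 7.34 in GC and at 6.04 and 5.64 in DFOG and fell by 1.28 (limma adjusted p = 0.0116), a call that was lost when only the GC and DFOG samples were fitted (adjusted p = 0.0624). No GC sample overlapped a DFOG sample for either receptor, as in 57% of all genes. TGFBR3, the co-receptor through which inhibin acts, fell by 2.91, and AMHR2, the receptor of anti-Müllerian hormone, by 2.13. The oestrogen receptor ESR1 lay at 8.90, 6.17 and 6.10 in GC and at 4.89 and 4.66 in DFOG (-2.29 ± 0.71), and without DFOG 1 it did not pass (limma adjusted p = 0.132). The first GC array lay highest, and without it the difference was -1.37. ESR2, the oestrogen receptor typical of granulosa cells, lay at 4.17, 4.03 and 4.46 in GC and at 4.32 and 4.08 in DFOG and did not pass. Receptors that rose were ACVR1, which binds bone morphogenetic proteins (1.98 ± 0.21), and the membrane progesterone receptor PAQR7 (1.68 ± 0.22).

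Gonadotropin receptors signal through cyclic AMP. Of the genes of that pathway 3 of 15 measured genes rose and 2 fell, with a median change of 0.11. In all 33.3% were called, against 30.6% of all genes. SGK1, a kinase induced by many hormones, rose from 5.78 to 10.07 (4.29 ± 0.45). Its level lay at 6.86, 5.32 and 5.17 in GC and at 9.999 and 10.14 in DFOG. RGS2 and RGS4, which switch off G proteins, fell by 3.34 and 2.16. As a mean over its probe sets RGS2 changed by -1.18. PRKAR2A, a regulatory subunit of protein kinase A (1.36), and the transcription factor CREM (0.59) also passed. Both lost the call without DFOG 1 (limma adjusted p = 0.107 and 0.139), which left 1 riser in the list. CREM lost it also without GC 1 (0.0644) or GC 3 (0.0803), and turned to -0.22 as a mean over its 4 probe sets, which differ in direction.

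Transcription factors of granulosa cells moved unevenly. Of the 19 measured, 3 rose and 5 fell, with a median of 0.04. In all 42.1% were called, against 30.6% of all genes. NR5A2, the nuclear receptor that granulosa cells need for ovulation, lay at 13.21, 13.31 and 12.39 in GC and at 8.39 and 8.05 in DFOG (-4.75 ± 0.31 SE, limma adjusted p = 1.19e-06). Its relative NR5A1, a master regulator of steroid enzymes, lay at 9.74, 9.17 and 9.22 in GC and at 8.11 and 8.11 in DFOG (-1.27 ± 0.20). FOXO1, which holds granulosa cells back from maturing, was at 13.29, 13.30 and 13.31 in GC and at 10.08 and 10.57 in DFOG (-2.97 ± 0.21). The means over the probe sets were -0.77 for NR5A1 and -1.83 for FOXO1. GATA4, a regulator of the gonad, lay at 9.74, 8.57 and 8.65 in GC and at 9.41 and 8.14 in DFOG, and its GC and DFOG samples overlapped. GATA6 (-1.56 ± 0.52) lost its call without GC 1, GC 2, GC 3, DFOG 1 or DFOG 3 (limma adjusted p = 0.101, 0.135, 0.0506, 0.188 and 0.0535). FOXL2, which keeps granulosa cells from turning into testis-like cells, read 5.56 ± 0.15 (SD, n = 3) in granulosa cells and was at 5.61 ± 0.02 (SD, n = 2) after culture. The same probe set read 5.70 in mature adipocytes and 5.72 in DFAT, so it does not tell granulosa cells from fat cells. SOX9, the testis counterpart of FOXL2, rose from 3.68 to 6.12 (2.44 ± 0.24 SE, limma adjusted p = 2.42e-05), with samples at 3.48, 3.77 and 3.79 in GC and at 6.44 and 5.80 in DFOG. NR2F1, a nuclear receptor of mesenchyme, rose by 1.97. WT1, a marker of the early gonad, lay at 6.93, 5.75 and 6.12 in GC and at 8.38 and 6.13 in DFOG and did not pass.

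Steroid pathway genes moved both ways, also within the first step. Of the steroid hormone genes 3 of 22 measured genes rose and 9 fell, with a median change of -0.39. Cholesterol enters the pathway through STAR, which lay at 4.38, 5.39 and 4.56 in GC and at 4.35 and 4.12 in DFOG and did not pass. CYP11A1, the side-chain cleavage enzyme of the first step, lay at 9.28, 7.74 and 9.16 in GC and at 11.33 and 10.74 in DFOG (2.31 ± 0.47 SE, limma adjusted p = 0.00398). The call was lost without DFOG 1 (limma adjusted p = 0.0505), when 1 gene of the list rose. HSD3B1, which makes progesterone, rose 58.8-fold, with samples at 6.25, 5.60 and 5.99 in GC and at 11.48 and 12.17 in DFOG (5.88 ± 0.46 SE, limma adjusted p = 4.02e-06), and its other probe set rose by 5.54. The electron carriers that feed the side-chain cleavage enzyme went the other way: FDXR lay at 11.24, 11.35 and 11.21 in GC and at 6.91 and 7.22 in DFOG (-4.20 ± 0.19) and FDX1 at 12.24, 12.34 and 11.97 in GC and at 9.79 and 9.79 in DFOG (-2.40 ± 0.20). POR, the carrier for aromatase and the 17-hydroxylase, fell by 2.98. The high-density lipoprotein receptor SCARB1, by which ovarian cells take up cholesterol, fell by 1.94. HSD17B1, the last step to oestradiol, fell 338-fold, with samples at 13.48, 14.09 and 13.58 in GC and at 5.32 and 5.31 in DFOG (-8.40 ± 0.21 SE, limma adjusted p = 1.73e-09). CYP17A1, the theca enzyme that makes androgens, lay at 4.99, 4.67 and 4.76 in GC and at 5.41 and 5.001 in DFOG and did not pass.

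Aromatase, the enzyme that makes oestrogen, was read by 12 probe sets that did not behave alike. The pig carries near-identical copies of the gene, so the array cannot assign a signal to 1 copy with certainty. Of the 4 probe sets named CYP19A1, 1 rose, and the 1 with the highest mean level lay at 4.84, 5.12 and 4.89 in GC and at 5.17 and 5.06 in DFOG. Of the 8 named CYP19A3, 4 fell. The first of them lay at 13.30, 13.82 and 12.74 in GC and at 4.04 and 4.01 in DFOG, a fall of 9.26 ± 0.33 (SE, limma adjusted p = 1.99e-08) that was exceeded by 1 probe set on the whole array. The second lay at 12.16, 11.13 and 10.05 in GC and at 3.35 and 3.20 in DFOG (-7.83 ± 0.46) and the third at 10.16, 10.24 and 8.47 in GC and at 6.56 and 6.42 in DFOG (-3.13 ± 0.45). All of these GC samples lay above all DFOG samples, where 57% of all genes showed no overlap. The first 2 lay at 4.04 and 3.62 in mature adipocytes, near their DFOG levels. The eighth, which stands for the gene in the counts because its mean over all samples is highest, lay at 8.70, 9.001 and 9.20 in GC and at 9.34 and 9.41 in DFOG and did not pass. It read 9.64 in mature adipocytes, so the rule for choosing a probe set hides the fall of the others. These probe sets were singled out after their values were seen, and the 3 with the largest change kept their call under all 15 alternatives run for them.

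**Figure D2:**
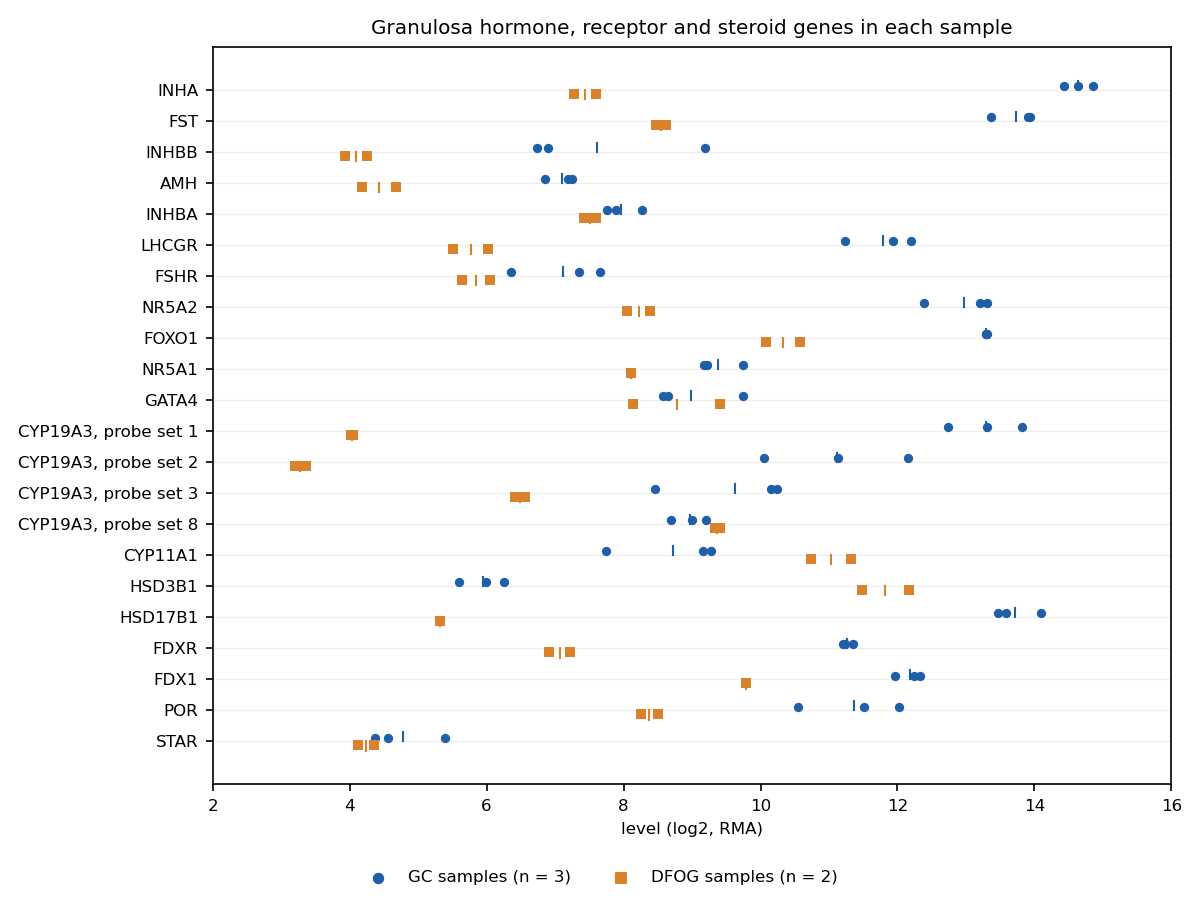
Log2 levels (x axis) of hormone, receptor, transcription factor and steroid genes (rows) in each GC sample (blue circles, n = 3) and DFOG sample (orange squares, n = 2), with a short bar at each group mean. INHA, HSD17B1 and the first CYP19A3 probe set lie more than 7 log2 units higher in GC, HSD3B1 and CYP11A1 lie higher in DFOG, and the samples of GATA4 overlap.

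Cholesterol genes were called about as often as all genes. Of the synthesis and uptake genes 1 of 18 measured genes rose and 5 fell, with a median change of -0.03, and 33.3% were called in all, against 30.6% of all genes. NPC1, which lets cholesterol leave the lysosome from its membrane, fell by 1.84, while its soluble partner NPC2 lay at 9.47, 9.49 and 9.23 in GC and at 11.75 and 11.79 in DFOG (2.38 ± 0.19), a change that shrank to 0.64 as a mean over its probe sets. SREBF2, the switch of cholesterol synthesis, fell by 1.02, a call lost as a mean over its probe sets (limma adjusted p = 0.218). Without DFOG 1 the number of genes that fell dropped from 5 to 3. The largest change in lipoprotein uptake was that of LRP8, an apolipoprotein E receptor, which stands in the caveolae and traffic list: it lay at 13.13, 12.75 and 12.04 in GC and at 8.72 and 8.30 in DFOG (-4.13 ± 0.30 SE, limma adjusted p = 2.27e-06).

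Genes of ovulation split evenly. Of the measured ones 4 of 12 rose and 4 fell (median 0.36), and without DFOG 1 the rises numbered 2. PTGES, which makes prostaglandin E2, lay at 12.72, 12.84 and 11.93 in GC and at 9.22 and 9.26 in DFOG (-3.25 ± 0.48 SE, limma adjusted p = 4.53e-04), while PTGS2, the inducible cyclooxygenase before it, lay at 3.73, 3.27 and 3.27 in GC and at 3.20 and 2.76 in DFOG and did not pass. PTX3, a protein that knits the matrix around the oocyte, rose from 3.36 to 6.14 (2.78 ± 0.54, or 1.71 as a mean over its probe sets). PLAT, the tissue plasminogen activator, lay at 8.73, 7.78 and 8.77 in GC and at 11.26 and 11.09 in DFOG (2.75 ± 0.31). EFNB2, a ligand between neighbouring cells, fell by 2.03. In the wider prostaglandin list 2 of 10 rose and 2 fell (median -0.06). The constitutive cyclooxygenase PTGS1 rose by 1.51 but not without DFOG 1 (limma adjusted p = 0.0826). The receptor PTGER3 rose by 0.88 and the thromboxane synthase TBXAS1 fell by 1.10.

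Glutathione enzymes, abundant in steroid-making cells, gave some of the largest falls. In that list 7 of 33 measured genes rose and 11 fell, with a median change of -0.25. The share called was above the 30.6% of all genes. The falls numbered 6 when DFOG 1 was left out, and without GC 2 they numbered 7. GSTA1, an alpha-class glutathione transferase, lay at 13.91, 13.98 and 13.66 in GC and at 5.81 and 5.56 in DFOG (-8.16 ± 0.19 SE, limma adjusted p = 1.29e-09), a 286-fold difference. Alpha-class genes are close copies of each other, so this signal may hold more than 1 of them. MGST1, the microsomal transferase, lay at 13.45, 14.03 and 13.36 in GC and at 8.33 and 8.60 in DFOG (-5.14 ± 0.30), and GSTA4 fell by 2.85, where the mean over its probe sets changed by -1.78. GCLC, the catalytic subunit of glutathione synthesis, fell by 2.83, and the quinone reductase NQO1 lay at 10.96, 10.50 and 10.63 in GC and at 8.03 and 7.79 in DFOG (-2.78 ± 0.32). GPX1, a selenium-dependent peroxidase, went the other way, at 9.16, 9.03 and 8.37 in GC and at 11.60 and 11.78 in DFOG (2.84 ± 0.38). GLRX, a glutaredoxin outside the list, rose by 6.17 ± 0.55 (SE).

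Other large falls belonged to unrelated genes. DAPL1, a small death-associated protein, lay at 13.20, 13.18 and 12.86 in GC and at 4.81 and 5.05 in DFOG (-8.15 ± 0.18 SE, limma adjusted p = 7.69e-10). ACSL6, an acyl-CoA synthetase known from brain, lay at 10.65, 10.22 and 10.08 in GC and at 3.50 and 3.67 in DFOG (-6.73 ± 0.24). MAL2, a carrier of vesicles to the apical side of epithelial cells, lay at 9.77, 9.61 and 9.19 in GC and at 3.63 and 3.38 in DFOG (-6.02 ± 0.31). Between the groups there was a gap of at least 5 log2 units in these 3 genes. SELENBP1, a selenium-binding protein, fell by 5.40, MOBP, named for its place in myelin, by 5.15, NEBL, an actin-binding protein, by 5.05, and RHBG, an ammonium transporter, by 5.01. MOBP was read by 5 probe sets, of which 4 fell. As a mean over their probe sets MAL2 and MOBP changed by -3.04 and -2.48.

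Contractile genes rose together. Of the smooth muscle and stress fibre genes 29 of 34 rose, against 17.2% of all genes, and 1 fell, with a median of 2.71 and a highest change of 8.40. ACTA2, the smooth muscle alpha-actin of myofibroblasts, lay at 7.55, 7.29 and 8.24 in GC and at 14.08 and 14.28 in DFOG (6.49 ± 0.27 SE, limma adjusted p = 3.91e-08). TAGLN, which binds actin filaments, lay at 5.98, 5.95 and 6.60 in GC and at 13.94 and 13.84 in DFOG (7.71 ± 0.21). CNN1, the calponin of smooth muscle, lay at 3.99, 3.87 and 4.19 in GC and at 11.34 and 10.84 in DFOG (7.07 ± 0.28). All DFOG values of these genes lay above all GC values. The largest rises were picked among genes without overlap, and 57% of all genes showed none. FHL2, a co-activator at stress fibres, rose 338-fold, with samples at 3.64, 3.42 and 3.79 in GC and at 12.27 and 11.76 in DFOG. ACTG2, the enteric smooth muscle actin, rose by 5.68, ACTN1, which cross-links actin, by 5.63, and MYL9, the regulatory light chain of contraction, by 3.61. As a mean over their probe sets the first 2 rose by 3.17 and 3.60. DES, the intermediate filament of muscle, lay at 6.09, 6.48 and 6.57 in GC and at 9.29 and 7.44 in DFOG (1.98 ± 0.58) and lost its call without GC 1, GC 2 or GC 3 (limma adjusted p = 0.0654, 0.0572 and 0.0552), and without DFOG 1, when the difference was 1.06 (limma adjusted p = 0.330). The gene that fell was MYOCD, the co-activator of smooth muscle genes, named here after its value was seen. It lay at 6.59, 5.98 and 6.29 in GC and at 5.45 and 5.46 in DFOG (-0.84 ± 0.21), and without DFOG 1 no member of the list fell.

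Markers of other cells that a follicle preparation can hold were read beside these genes. Called were 66.7% of the pericyte, 33.3% of the endothelial, 14.3% of the macrophage, 33.3% of the theca and 22.2% of the oocyte markers. Of all genes 30.6% were called. Of the pericyte and vascular smooth muscle markers 4 of 6 rose, 2 of them members of the contractile list. RGS5, the pericyte marker, lay at 9.18, 7.59 and 8.23 in GC and at 10.67 and 10.82 in DFOG (2.41 ± 0.46), and the pericyte receptor PDGFRB at 6.46, 4.73 and 5.91 in GC and at 10.25 and 10.15 in DFOG (4.50 ± 0.43, or 2.32 as a mean over its probe sets). MCAM, the other defining marker measured, lay at 3.96, 3.83 and 4.08 in GC and at 4.96 and 3.75 in DFOG and did not pass. The mean level of RGS5 and MCAM ran from 5.71 to 6.57 over the GC samples and from 7.29 to 7.81 over the DFOG samples. Their part in the contractile and matrix results was not tested. Of the endothelial markers 4 of 15 rose and 1 fell (median 0.17): PECAM1 rose from 5.08 to 6.85 and TIE1 fell from 8.30 to 5.82, while VWF and CDH5 did not pass. These rises numbered 2 without DFOG 1. ERG, a transcription factor of endothelium, rose by 3.10. In the macrophage list 1 of 14 rose and 1 fell (median -0.12): CD14 rose from 5.19 to 6.74 (by 0.86 as a mean over its probe sets), and SPI1, the master factor of myeloid cells, fell from 6.70 to 4.80. Among lymphocyte (12 genes, median -0.01) and erythrocyte markers (5 genes, median -0.19) none was called by limma, and at an unadjusted p under 0.05 the lymphocyte list gave 0.0 up and 0.0 down and the erythrocyte list 0.0 up and 1.0 down. The theca marker INSL3 lay at 9.59, 8.06 and 8.86 in GC and at 5.97 and 5.69 in DFOG (-3.01 ± 0.34), highest in the first GC array, and in that list 1 of 9 rose and 2 fell (median -0.19). The other theca-list gene that fell was LHCGR (-6.02), which is also on the receptor list. Of the oocyte markers 0 of 9 rose (0.0 at an unadjusted limma p under 0.05) and 2 fell (median -0.12), KIT, the receptor of the oocyte and of theca cells, among them (-2.08 ± 0.39). KRT19, the only 1 of 4 surface epithelium markers to change (list median 0.43), is described with the keratins. The mean level of the granulosa markers ran from 9.55 to 9.95 over the GC samples and from 6.48 to 6.72 over the DFOG samples.

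Integrins, through which cells hold on to the matrix, rose. Of the integrin and focal adhesion genes 9 of 11 measured genes rose and 0 fell (0.0 down at an unadjusted limma p under 0.05), with a median change of 2.17. Over all genes 17.2% rose and 13.4% fell. ITGB3, the beta chain of the vitronectin receptor, lay at 4.69, 5.60 and 5.33 in GC and at 11.22 and 11.24 in DFOG (6.02 ± 0.49 SE, limma adjusted p = 5.50e-06). ITGA5, the alpha chain of the fibronectin receptor, lay at 5.25, 5.70 and 5.13 in GC and at 10.89 and 9.70 in DFOG (4.94 ± 0.36). ITGA8, a receptor chain of smooth muscle and mesangium, rose by 4.29, and ITGA2, a collagen receptor chain, by 2.88. ITGA6, a laminin receptor chain, lay at 3.31, 3.70 and 3.42 in GC and at 3.30 and 3.70 in DFOG and did not pass. Genes that respond to YAP and TEAD, the factors that report cell spreading and stiffness, rose in 8 of 11 cases and fell in 0 (0.0 at an unadjusted limma p under 0.05), with a median of 1.70. F3, tissue factor, lay at 8.02, 6.57 and 7.75 in GC and at 12.58 and 12.55 in DFOG (5.12 ± 0.35), and THBS1, thrombospondin, at 9.22, 7.51 and 8.02 in GC and at 12.49 and 12.56 in DFOG (4.27 ± 0.38). ANKRD1 rose by 2.56. The means over the probe sets were 1.60 for ITGA2 and 1.48 for ANKRD1. CYR61, a much-used readout of YAP, passed at 1.01, but not without DFOG 1 (limma adjusted p = 0.0593), GC 2 (0.0636) or GC 3 (0.0520).

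Matrix genes rose widely, with gaps. Among elastic fibre, fibronectin and matricellular genes 10 of 14 measured genes rose and 0 fell (1.0 down at an unadjusted limma p under 0.05), with a median change of 3.24. FN1, fibronectin, lay at 6.14, 5.94 and 5.71 in GC and at 13.63 and 13.71 in DFOG (7.74 ± 0.24 SE, limma adjusted p = 7.97e-09), a 213-fold difference, while the mean over its 4 probe sets rose by 3.27. SPP1, osteopontin, rose by 5.47, THBS2 by 4.65 and MGP, an inhibitor of calcification, by 4.60. POSTN, periostin, lay at 3.19, 3.55 and 3.72 in GC and at 9.73 and 8.36 in DFOG (5.56 ± 1.07), and TNC, tenascin-C, at 6.35, 5.18 and 6.67 in GC and at 9.26 and 9.27 in DFOG (3.19 ± 0.41). The 2 DFOG samples differed more in POSTN than in the other genes of this group, but both lay above GC. Of the fibrillar collagens and their processing enzymes 10 of 18 measured genes rose and 1 fell, with a median change of 1.15. LOX, which cross-links collagen and elastin, lay at 5.37, 5.13 and 5.58 in GC and at 12.34 and 11.96 in DFOG (6.79 ± 0.26). PCOLCE2, an enhancer of collagen trimming, lay at 4.89, 5.42 and 5.32 in GC and at 12.25 and 11.81 in DFOG (6.82 ± 0.26). COL1A2, a chain of type I collagen, lay at 6.83, 6.97 and 7.31 in GC and at 10.64 and 9.34 in DFOG (2.96 ± 0.53), and COL5A1, of type V collagen, at 6.99, 6.94 and 7.28 in GC and at 12.55 and 12.29 in DFOG (5.34 ± 0.20). COL3A1, of type III collagen, did not follow: it lay at 7.54, 7.97 and 7.33 in GC and at 6.82 and 7.12 in DFOG and did not pass. Some other probe sets of POSTN, LOX and COL5A1 were not called, and the means over the probe sets were 2.89, 3.41 and 2.61. The gene that fell was BMP1, the enzyme that trims procollagens, named after its value was seen (-2.80 ± 0.22).

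Proteoglycans and the basement membrane were mixed. In the proteoglycan and hyaluronan list 6 of 16 measured genes rose and 2 fell, with a median change of 0.35. DCN, the leucine-rich proteoglycan decorin, lay at 3.71, 4.30 and 4.54 in GC and at 11.31 and 12.27 in DFOG (7.61 ± 0.53 SE, limma adjusted p = 1.71e-06), and LUM, lumican, at 3.07, 3.01 and 3.43 in GC and at 9.35 and 9.20 in DFOG (6.10 ± 0.68). BGN, biglycan, lay at 7.81, 7.25 and 7.50 in GC and at 11.26 and 11.01 in DFOG. As a mean over its probe sets DCN rose by 3.83. None of these 3 leucine-rich proteoglycans overlapped between the groups, which holds for 57% of all genes. VCAN, versican, the large proteoglycan that granulosa cells themselves make, lay at 12.83, 11.93 and 11.96 in GC and at 11.41 and 10.67 in DFOG (-1.20 ± 0.33 SE, limma adjusted p = 0.0190), and all 5 of its probe sets fell. Its call was lost when only GC and DFOG were fitted (adjusted p = 0.0572). Without DFOG 1, GC 2 or GC 3 the falls in this list numbered 1. SDC1, a cell-surface proteoglycan, rose by 3.75. Of the basement membrane genes 3 of 7 measured genes rose and 1 fell, with a median change of 0.36. COL15A1, a collagen anchored at basement membranes, lay at 4.27, 3.98 and 4.12 in GC and at 12.54 and 12.82 in DFOG (8.56 ± 0.17 SE, limma adjusted p = 2.60e-10), the largest rise among the 6765 genes. LAMB1, a laminin beta chain, lay at 3.89, 4.76 and 3.97 in GC and at 11.50 and 11.24 in DFOG (7.16 ± 0.27), while LAMB2, the other laminin beta chain, lay at 11.18, 10.39 and 10.69 in GC and at 8.60 and 8.15 in DFOG (-2.38 ± 0.42). NID2, nidogen, rose by 3.43. COL4A2, of type IV collagen, lay at 11.80, 12.05 and 11.998 in GC and at 10.11 and 10.95 in DFOG and did not pass (limma adjusted p = 0.0811), though it did when only GC and DFOG were fitted (adjusted p = 0.0123) and with array weights (adjusted p = 0.0138).

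Proteases and their inhibitors rose in part. Of the matrix proteases and inhibitors 8 of 23 measured genes rose and 1 fell, with a median change of 0.11. The share called was 39.1%, against 30.6% of all genes. MMP1, the interstitial collagenase, lay at 3.75, 3.36 and 3.71 in GC and at 7.80 and 8.003 in DFOG (4.29 ± 0.66 SE, limma adjusted p = 6.51e-04). TIMP1, an inhibitor of such enzymes, lay at 10.54, 10.37 and 10.71 in GC and at 13.55 and 13.78 in DFOG (3.13 ± 0.23), and TIMP3 lay at 8.21, 6.98 and 6.95 in GC and at 7.22 and 6.31 in DFOG and did not pass. MMP2, the gelatinase, lay at 9.68, 8.43 and 9.40 in GC and at 11.80 and 11.64 in DFOG (2.55 ± 0.58) and was not called without DFOG 1 (limma adjusted p = 0.0571). The gene that fell was SERPINE2, the protease inhibitor of the follicle wall, at 13.45, 14.28 and 13.93 in GC and at 11.79 and 11.07 in DFOG (-2.46 ± 0.29 SE, limma adjusted p = 8.45e-05).

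**Figure D3:**
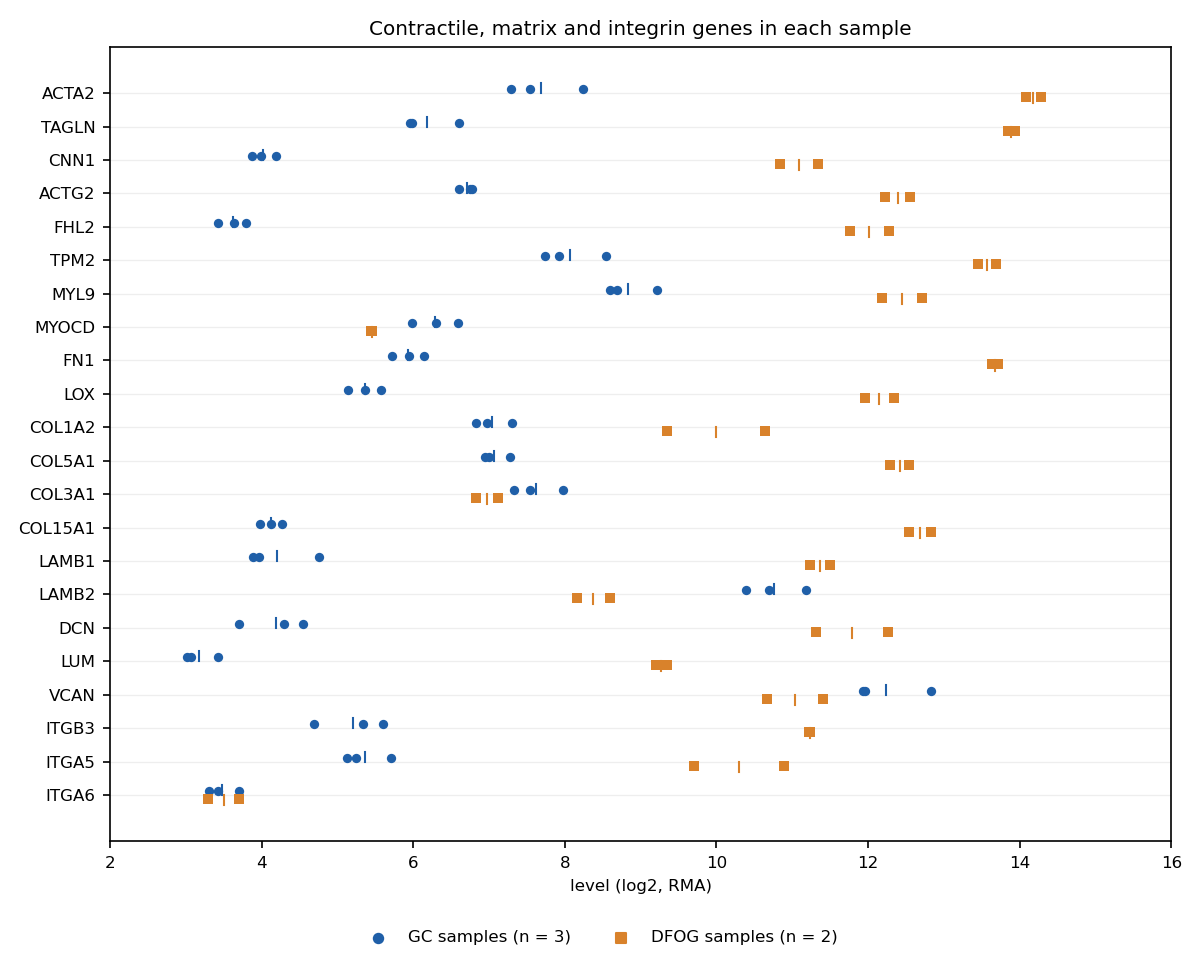
Log2 levels (x axis) of contractile, matrix and integrin genes (rows) in each GC sample (blue circles, n = 3) and DFOG sample (orange squares, n = 2), with a short bar at each group mean. ACTA2, TAGLN, FN1, COL15A1 and DCN lie more than 6 log2 units higher in DFOG, LAMB2 and VCAN lie higher in GC, and the samples of COL3A1 and ITGA6 lie close together.

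Epithelial and mesenchymal genes did not simply trade places. Of the epithelial keratin and junction genes 3 of 21 rose and 2 fell (median -0.07). That is 23.8% called, against 30.6% of all genes. KRT19, a keratin of simple epithelia, rose, at 3.99, 3.85 and 4.12 in GC and at 7.98 and 8.96 in DFOG (4.48 ± 0.30 SE, limma adjusted p = 1.19e-06), and so did DSP, desmoplakin of desmosomes, at 3.83, 3.94 and 3.94 in GC and at 7.72 and 7.76 in DFOG (3.84 ± 0.15). SPINT2, a protease inhibitor of epithelia, fell by 1.22, and MAL2 is given above. The means over the probe sets were 1.86 for DSP and -0.64 for SPINT2. KRT8 (1.20) lost its call without GC 1, GC 2 or GC 3 (limma adjusted p = 0.0972, 0.106 and 0.0830) and without DFOG 1, when the difference was 0.32 (limma adjusted p = 0.577), and KRT18, its partner, lay at 5.33, 5.25 and 4.97 in GC and at 5.67 and 5.35 in DFOG without a call. EPCAM lay at 4.23, 4.27 and 4.36 in GC and at 4.20 and 4.25 in DFOG and did not pass. In the mesenchymal list 6 of 13 measured genes rose and 1 fell, with a median change of 0.88. S100A4, a calcium-binding protein of fibroblasts, lay at 5.31, 5.11 and 5.36 in GC and at 10.93 and 9.10 in DFOG (4.76 ± 0.57), PRRX1, a homeobox factor of mesenchyme, at 4.53, 4.08 and 4.36 in GC and at 7.12 and 8.34 in DFOG (3.41 ± 0.42), and SNAI1, a repressor of E-cadherin, at 5.43, 4.91 and 5.15 in GC and at 7.76 and 7.10 in DFOG (2.27 ± 0.30). VIM, vimentin, lay at 14.05, 13.82 and 13.69 in GC and at 14.27 and 13.96 in DFOG and did not pass: it was high already in GC. ID2, an inhibitor of helix-loop-helix factors, fell by 3.53.

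Surface genes of stromal cells rose in part. Of the mesenchymal stromal surface genes 6 of 12 measured genes rose and 0 fell (0.0 down at an unadjusted limma p under 0.05), with a median change of 0.60. VCAM1, an adhesion molecule, lay at 3.88, 3.60 and 4.41 in GC and at 10.36 and 10.11 in DFOG (6.27 ± 0.86 SE, limma adjusted p = 2.70e-04), and THY1, CD90, at 5.60, 5.30 and 5.66 in GC and at 10.26 and 9.47 in DFOG (4.35 ± 0.61). ENG, endoglin, lay at 6.13, 5.72 and 6.15 in GC and at 6.45 and 5.89 in DFOG and did not pass. Among gap junction, Notch and contact genes 5 of 16 measured genes rose and 2 fell, with a median change of -0.22. GJA1, connexin 43, the gap junction protein of granulosa cells, lay at 13.78, 13.99 and 13.67 in GC and at 13.37 and 13.23 in DFOG, without a call (limma adjusted p = 0.118), though it passed with DFOG 2 and 3 kept apart (adjusted p = 0.0428). CDH11, a cadherin of mesenchyme, lay at 3.06, 2.99 and 3.39 in GC and at 9.56 and 10.03 in DFOG (6.65 ± 0.24), and NCAM1 rose by 3.36. JAG1, a Notch ligand, fell by 1.78 and DLL4, another, by 1.34, while the Notch target HES1 rose by 1.55. As a mean over their probe sets CDH11 and THY1 rose by 2.97 and 2.65, and JAG1 changed by -0.70 and did not pass. Of the caveolae and traffic genes 4 of 11 measured genes rose and 1 fell, with a median change of 0.63, led by CAV1, caveolin, at 4.03, 4.39 and 4.05 in GC and at 10.10 and 9.27 in DFOG (5.53 ± 0.25) and CAV2 (2.46 ± 0.32).

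Signalling genes gave single large changes. Of the TGF-beta and BMP genes 5 of 17 measured genes rose and 2 fell, with a median change of 0.43. In this list 41.2% were called and in the Wnt list 36.4%, against 30.6% of all genes. The ligand TGFB1 lay at 6.22, 4.78 and 5.36 in GC and at 10.45 and 9.20 in DFOG (4.37 ± 0.46 SE, limma adjusted p = 4.16e-05) and TGFB2 rose by 2.90, or by 1.72 as a mean over its probe sets. BAMBI, a decoy receptor, rose by 1.75. Of the Wnt genes 2 of 11 measured genes rose and 2 fell, with a median change of 0.02: the secreted inhibitor SFRP1 lay at 5.07, 5.02 and 5.52 in GC and at 9.28 and 10.15 in DFOG (4.51, limma adjusted p = 0.00656) and DKK3 rose by 2.52, while the transcription factor TCF7L2 fell by 2.58 and the receptor LRP6 by 1.37. Both risers are secreted proteins, and both genes that fell act inside or at the receiving cell.

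Insulin-like growth factor carriers exchanged. In that list 3 of 12 measured genes rose and 2 fell, with a median change of -0.05. IGFBP2 lay at 12.66, 11.79 and 12.10 in GC and at 6.95 and 6.62 in DFOG (-5.40 ± 1.20 SE, limma adjusted p = 0.00654). IGFBP5 lay at 6.80, 6.005 and 5.17 in GC and at 13.44 and 11.25 in DFOG (6.35 ± 0.67), and IGFBP6 rose by 2.33. STC1, a glycoprotein hormone of the ovary, rose by 3.998, or by 2.53 as a mean over its probe sets. IGF1, which supports the action of follicle-stimulating hormone, lay at 9.56, 9.73 and 9.87 in GC and at 8.30 and 8.73 in DFOG (-1.21 ± 0.28), a call lost without DFOG 1 (limma adjusted p = 0.105) that left 1 fall in the list, and IGF2 lay at 7.92, 8.27 and 8.63 in GC and at 8.46 and 8.43 in DFOG and did not pass. Of the growth factors and receptors 4 of 18 measured genes rose and 1 fell, with a median change of 0.19. The 27.8% called lay near the 30.6% of all genes. BDNF, a neurotrophin, lay at 3.87, 4.15 and 3.86 in GC and at 8.89 and 9.40 in DFOG (5.19 ± 0.25), FGFR2 rose by 4.18, GAS6 by 2.67, and ANGPT1, the angiopoietin of vessel support, fell by 3.37.

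Cytokines and chemokines had a median level of 4.62 in GC. Of them 7 of 28 measured genes rose and 1 fell, with a median change of 0.18. The share called, 28.6%, was near the 30.6% of all genes. CCL2, which attracts monocytes, lay at 3.83, 4.16 and 4.22 in GC and at 12.90 and 11.90 in DFOG (8.33 ± 0.57 SE, limma adjusted p = 1.62e-06), a 322-fold rise. LIF, a cytokine of the interleukin-6 family, lay at 2.89, 3.11 and 3.63 in GC and at 9.56 and 7.83 in DFOG (5.48 ± 0.42), and IL18 at 4.11, 4.18 and 4.17 in GC and at 9.64 and 9.18 in DFOG (5.26 ± 0.23). CXCL14 rose by 3.26. IL1A (2.21) was lost without DFOG 1 (limma adjusted p = 0.0740), GC 2 (0.0560) or GC 3 (0.0602). The gene that fell, AMCF-II, a pig neutrophil chemokine, was named after its value was seen (-1.23 ± 0.16). Interferon and antigen presentation genes gave 4 rises and 2 falls among 31 (median 0.10): GBP1, a guanylate-binding protein, rose by 2.89, the immunoproteasome subunits PSMB8 and PSMB10 by 1.51 and 1.49, and SLA-DMA, a class II loading protein, fell from 12.15 to 9.33 (-2.81 ± 0.22). The means over the probe sets were 1.31 for GBP1 and -1.25 for SLA-DMA.

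No gene of the division lists rose in culture. Of the mitosis genes 0 of 18 measured genes rose and 3 fell (0.0 up at an unadjusted limma p under 0.05), with a median change of -0.83, and of the DNA replication genes 0 of 14 measured genes rose and 0 fell (0.0 up and 1.0 down at an unadjusted limma p under 0.05), with a median change of -0.32. Over all genes 17.2% rose and 13.4% fell. The share of mitosis genes that fell, 16.7%, was thus near that of all genes. The mean level of the 18 mitosis genes was 10.1, 9.57 and 9.57 in the GC samples and 8.99 and 8.55 in DFOG. TOP2A, the topoisomerase of dividing cells, lay at 12.24, 11.33 and 11.39 in GC and at 9.99 and 9.30 in DFOG (-2.01 ± 0.54 SE, limma adjusted p = 0.0175). CCNB1, the mitotic cyclin, lay at 11.49, 11.07 and 10.81 in GC and at 10.63 and 10.14 in DFOG and CCNA2 at 8.54, 7.02 and 7.14 in GC and at 7.56 and 6.91 in DFOG, and neither passed. PCNA, the replication clamp, lay at 10.81, 10.17 and 10.22 in GC and at 10.04 and 9.83 in DFOG and RRM2, a subunit of ribonucleotide reductase, at 9.35, 8.89 and 8.07 in GC and at 10.24 and 9.53 in DFOG, also without a call. AURKB (-1.53) lost its call without DFOG 1 (limma adjusted p = 0.0606), and CDC20 (-1.33) without DFOG 1 or any GC sample (limma adjusted p = 0.0748, 0.121, 0.0608 and 0.0598). Without DFOG 1 the falls numbered 1, and in the fit of GC and DFOG alone they numbered 10. In adipocytes the same list went from a mean of 5.50 to 5.55 in the MA samples to 9.26, 7.91 and 7.18 in DFAT. There 16 of 18 genes rose. The share of all genes that rose in adipocytes was not counted, so that count has no background to be read against. The difference between the 2 changes passed in 15 of 18 mitosis genes and 10 of 14 replication genes, against 29.2% of all genes.

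**Figure D4:**
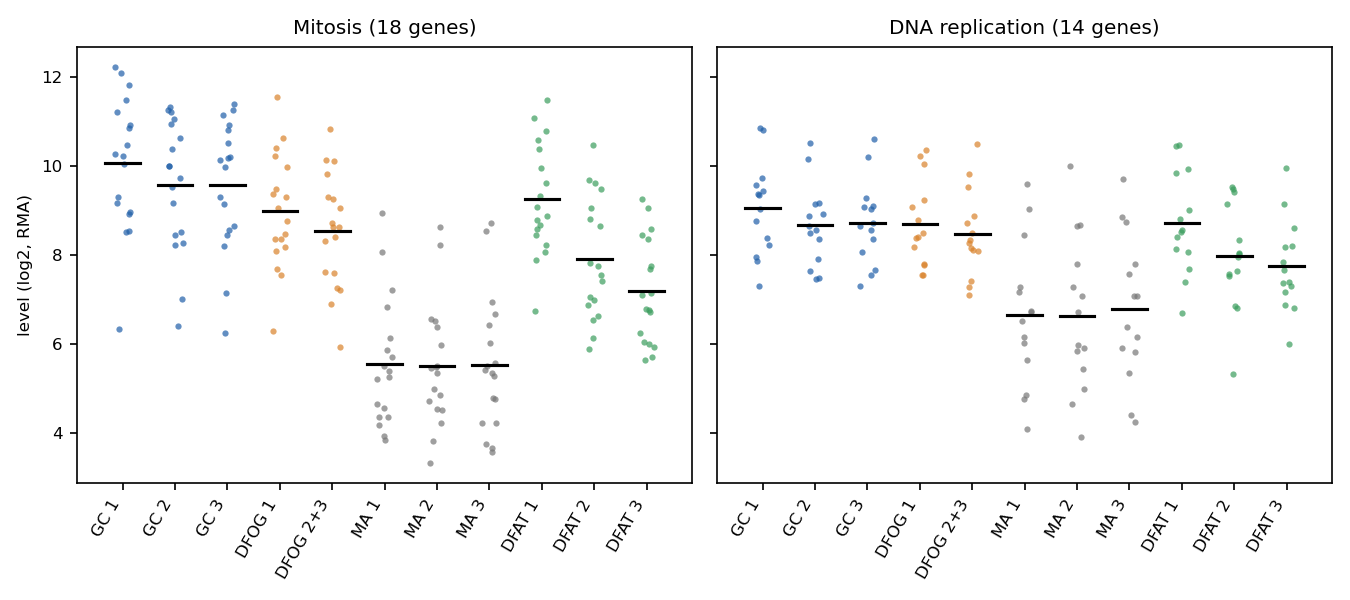
Log2 levels (y axis) of 18 mitosis genes (left) and 14 DNA replication genes (right) in each sample (x axis), with 1 point per gene and a black bar at the sample's mean. For mitosis the means are highest in GC, 8.99 and 8.55 in DFOG, lowest in MA and spread from 7.18 to 9.26 in DFAT.

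Regulators of the cell cycle moved both ways. Of the cyclin-dependent kinase inhibitors, p53 targets and D cyclins 6 of 19 measured genes rose and 7 fell, with a median change of -0.50, against 17.2% up and 13.4% down over all genes. CDKN1A, the p21 inhibitor, lay at 9.29, 9.03 and 9.15 in GC and at 11.41 and 10.55 in DFOG (1.82 ± 0.29 SE, limma adjusted p = 8.18e-04), PLK2 rose by 4.13 and ZMAT3, a p53 target, by 2.64. GADD45G, a stress gene, lay at 9.85, 10.49 and 10.41 in GC and at 6.15 and 6.89 in DFOG (-3.73 ± 0.35) and BTG2, an antiproliferative gene, fell by 2.74. CCND2, the D cyclin of granulosa cells, lay at 11.72, 12.41 and 11.40 in GC and at 9.94 and 11.20 in DFOG and did not pass (limma adjusted p = 0.0805), though it did with array weights (adjusted p = 0.0397). The rises numbered 3 when DFOG 1 was left out.

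Immediate early genes, which respond within minutes to handling and growth factors, split as well. In that list 6 of 19 measured genes rose and 8 fell, with a median change of -0.58. FOS lay at 13.48, 13.49 and 13.05 in GC and at 7.85 and 8.49 in DFOG (-5.17 ± 0.47 SE, limma adjusted p = 1.30e-05), ATF3 fell by 3.27 and JUN lay at 13.70, 13.61 and 13.13 in GC and at 11.04 and 11.05 in DFOG (-2.44 ± 0.22). EGR1 (-2.09 ± 0.65) lay highest in the first GC array, at 13.36, 11.13 and 11.58 in GC and at 10.32 and 9.53 in DFOG, and lost its call without DFOG 1 (limma adjusted p = 0.0772), GC 1 (0.0765) or GC 3 (0.0512). MYC rose, at 6.76, 6.45 and 6.77 in GC and at 9.80 and 9.53 in DFOG (3.01 ± 0.19), and IER3 rose by 3.03. KLF4 fell, at 10.03, 8.96 and 8.58 in GC and at 6.004 and 6.34 in DFOG (-3.01 ± 0.35). MYC and KLF4 are also on the pluripotency list, where 1 of 5 rose and 1 fell (median -0.08), and POU5F1, the core pluripotency factor, lay at 4.37, 4.74 and 4.80 in GC and at 4.42 and 4.70 in DFOG without a call.

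Energy metabolism shifted in single genes. Called were 48.1% of the glycolysis list, 22.0% of the citric acid cycle list and 9.09% of the respiratory chain list, against 30.6% of all genes. Of the glycolysis and hypoxia genes 8 of 27 measured genes rose and 5 fell, with a median change of 0.44, and without DFOG 1 these became 5 and 3. SLC2A1, the basal glucose transporter, lay at 7.51, 7.02 and 6.91 in GC and at 10.61 and 9.99 in DFOG (3.15 ± 0.32 SE, limma adjusted p = 3.22e-05), HK1, the first enzyme of glycolysis, rose by 2.35, and LDHA, which makes lactate, lay at 12.15, 11.54 and 11.20 in GC and at 13.66 and 13.45 in DFOG (1.92 ± 0.25). PDK4, which blocks the entry of pyruvate into the mitochondrion, lay at 9.37, 8.61 and 9.40 in GC and at 3.91 and 4.40 in DFOG (-4.97 ± 0.34). EGLN1, an oxygen sensor, fell by 1.99. Of the citric acid cycle and fatty acid oxidation genes 3 of 41 measured genes rose and 6 fell, with a median change of 0.08: beside ACSL6, ACSL1 rose by 3.95 and ACSL4 by 2.01, and IDH1 fell by 1.38. Without DFOG 1 the falls in this list numbered 3. In the respiratory chain 1 of 44 genes rose and 3 fell (median -0.05), the largest being COX7A1, a muscle-type subunit (-1.84 ± 0.23). Without DFOG 1, GC 1 or GC 2 the falls numbered 1, and under the poly-A centring 20.

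Ribosomal and proteasomal genes were seldom called. The share called was 1.96% of the ribosomal and 9.4% of the proteasome genes, against 30.6% of all genes. It was 35.9% for the secretory pathway, 22.6% for heat shock and chaperone genes and 36% for the lysosome. Of the cytosolic ribosomal protein genes 1 of 51 rose and 0 fell (median 0.02, with 0.0 down at an unadjusted limma p under 0.05), although 18 fell under the poly-A centring. The riser, RPSA (0.52), was lost without DFOG 1, GC 2 or GC 3 (limma adjusted p = 0.128, 0.0921 and 0.1001). In the proteasome 3 of 32 rose and 0 fell (median 0.25, with 1.0 down at an unadjusted limma p under 0.05), with PSME3, a nuclear activator, at 1.66, which lost its call with the actin control as a covariate (limma adjusted p = 0.0564). Secretory pathway genes rose in 14 of 39 cases and fell in 0 (median 0.41, with 0.0 down at an unadjusted limma p under 0.05), in 9 without DFOG 1 and in 2 under the poly-A centring, where 7 fell. SEC24D, a coat protein of vesicles that carry collagen, lay at 7.17, 6.95 and 7.20 in GC and at 10.52 and 9.72 in DFOG (3.01 ± 0.24 SE, limma adjusted p = 5.37e-06), and KDELR3, a retrieval receptor, at 9.25, 9.25 and 8.68 in GC and at 12.08 and 12.01 in DFOG (2.99 ± 0.28). Heat shock and chaperone genes gave 5 rises and 2 falls among 31 (median 0.24), among them the small heat shock proteins HSPB8 (3.71 ± 0.36) and CRYAB (2.30 ± 0.48), and HSPA5, the chief chaperone of the endoplasmic reticulum, lay at 13.86, 13.67 and 13.26 in GC and at 12.96 and 13.29 in DFOG without a call. Without GC 1 the rises numbered 9, and without DFOG 1 or GC 3 they numbered 3. Of the lysosomal genes 7 of 25 rose and 2 fell (median 0.18), with the protease CTSC at 2.69 ± 0.17 and CTSH at 2.01 ± 0.35, and 4 rose without DFOG 1. As a mean over their probe sets CRYAB and CTSC rose by 1.05 and 4.83.

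Genes of other lineages gave scattered calls. Called were 35.3% of the bone, cartilage and muscle genes, 26.7% of the adipocyte genes and 25% of the HOX genes. Of the imprinted, retinoid and apoptosis genes 21.4%, 33.3% and 15.8% were called, against 30.6% of all genes. Of the bone, cartilage and muscle genes 5 of 17 measured genes rose and 1 fell, with a median change of 0.19: DLX5, a homeobox factor of bone, lay at 4.59, 4.53 and 4.23 in GC and at 9.19 and 9.62 in DFOG (4.96 ± 0.31 SE, limma adjusted p = 8.82e-07). Without DFOG 1, GC 1 or GC 3 the rises numbered 3. Of the adipocyte genes 3 of 15 measured genes rose and 1 fell, with a median change of 0.02: PPARG, the nuclear receptor of fat cells that is also active in granulosa cells, lay at 10.67, 9.30 and 9.95 in GC and at 5.77 and 4.98 in DFOG (-4.60 ± 0.36 SE, limma adjusted p = 3.99e-06), and FABP4, a fatty acid carrier, rose by 2.31. Of the HOX and positional genes 1 of 8 measured genes rose and 1 fell, with a median change of 0.25: MEIS1, a HOX partner, rose by 3.38 (by 2.23 as a mean over its probe sets) and HOXD8 fell by 1.95. Of the imprinted genes 3 of 14 measured genes rose and 0 fell (0.0 down at an unadjusted limma p under 0.05), with a median change of 0.23: PHLDA2, a growth restrainer of the placenta, lay at 4.76, 5.88 and 5.52 in GC and at 10.74 and 10.01 in DFOG (4.995 ± 0.35), DIRAS3 rose by 2.36 and GRB10 by 1.62, and PEG3 lay at 6.12, 6.25 and 5.84 in GC and at 5.96 and 5.65 in DFOG without a call. Of the retinoid genes 2 of 9 measured genes rose and 1 fell, with a median change of 0.10, with CRABP2, a retinoic acid carrier, at 1.87 ± 0.31 and RDH11, a retinol dehydrogenase, at -1.17 ± 0.27. Of the apoptosis and survival genes 3 of 19 measured genes rose and 0 fell (2.0 down at an unadjusted limma p under 0.05), with a median change of 0.26: CLU, clusterin, lay at 9.90, 8.43 and 10.15 in GC and at 13.37 and 13.20 in DFOG (3.80 ± 0.72), and TNFRSF1A, a receptor of tumour necrosis factor, rose by 2.20. Without GC 1 the rises in this last list numbered 6.

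Some changes were not shared by adipocytes as they dedifferentiate. The 2 changes use different samples, and their difference passed the test in 1973 of 6765 genes (29.2%), with 1026 (15.2%) called both there and in DFOG minus GC. HSD3B1 rose in granulosa cells by 5.88 and fell by 4.27 in adipocytes, a difference of 10.14 ± 0.61 (SE, limma adjusted p = 1.19e-06). COL15A1, which lay at 12.50 in MA and 13.11 in DFAT, differed by 7.96, and VCAM1, at 9.79 and 8.16, by 7.90. RGCC, a regulator of the cell cycle, lay at 7.96, 7.69 and 7.26 in GC and at 9.98 and 10.18 in DFOG (2.44 ± 0.21) and fell from 13.19 to 8.64 in fat cells. COL15A1 was thus high in fat cells before their culture. In the other direction IGFBP2 went from 5.66 in MA to 10.90 in DFAT, a difference of -10.64 ± 1.61 (SE, limma adjusted p = 6.68e-04). SERPINE2 and VCAN likewise fell in granulosa cells and rose in fat cells, by 6.57 and 6.75. HSD17B1 and DAPL1 lay at 5.43 and 4.76 in MA, near their DFOG levels. Of the 34 contractile genes 29 rose in granulosa cells, and in adipocytes 28 rose and 2 fell. The share of all genes that rose in adipocytes was not counted, so the adipocyte count has no background to be read against. The difference passed in 16 of the 34, against 29.2% of all genes.

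**Figure D5:**
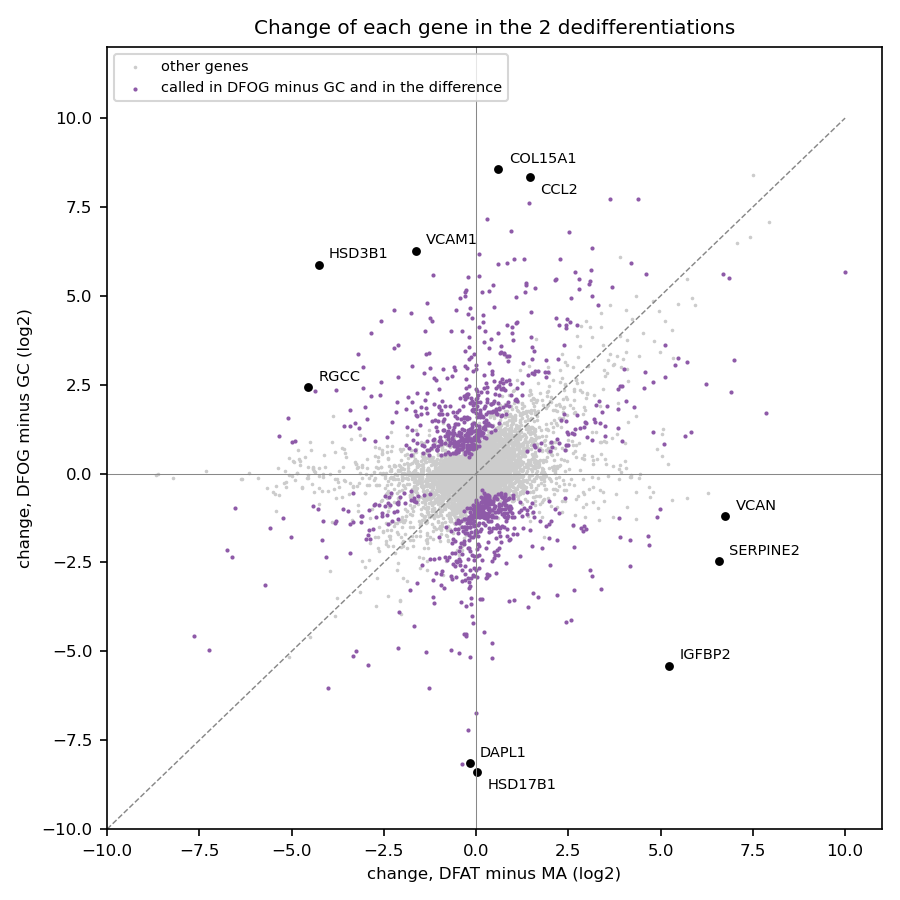
Change of each of 6765 genes in granulosa cells (DFOG minus GC, log2, y axis) against adipocytes (DFAT minus MA, log2, x axis), with genes called both in DFOG minus GC and in the difference in purple, others in grey, the 5 largest differences each way labelled in black and a dashed line where both changes are equal. HSD3B1 and RGCC rose in granulosa cells and fell in fat cells, and IGFBP2, SERPINE2 and VCAN show the reverse.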

How the data were processed

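RNA of 3 GC, 3 DFOG, 3 MA and 3 DFAT samples had been read on single-colour Affymetrix arrays. The deposited values are log2 levels that the authors computed with RMA, which corrects background, sets all arrays to 1 distribution and summarises each probe set, per the submitters' processing notes, with no version given. They were used as deposited. Arrays give no read depth, and the number of arrays limits the precision. Of 24123 probe sets 124 AFFX controls were left out. By the array annotation 10069 of the rest had 1 gene symbol, 198 several and 13732 none, and only the first kind was named. A gene was read by its probe set with the highest mean level over the samples. This choice left 139 genes uncalled whose other probe set was called, among 2261 genes with several, and 10 genes had probe sets called in both directions.

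DFOG 2 and 3 were averaged, and limma 3.58.1 in R 4.3.3 (lmFit, eBayes) fitted 1 mean per group over 11 samples, with 7 residual degrees of freedom, Benjamini-Hochberg adjustment over 23999 probe sets and two-sided tests at an adjusted p of 0.05. The fit was tested on simulated data. Among 23999 probe sets 100 were changed by 2-fold, of which 31% were recovered, and 100 by 4-fold, of which 90% were. Of the 132 called, 11 had not been changed. Controls were compared by two-sided exact permutation tests, with 4 tests and Benjamini-Hochberg adjusted p of at least 0.4. The members and the 55 gene lists were chosen with earlier results of these data known. Genes named are the 15 largest rises and falls whose groups do not overlap, the key members of each list, in each list at most 6 members by size of called change, and the 5 largest differences of changes each way. Lists are described by counts and medians, without a set test. The probe set rule, normalization, covariates, filters and each sample in turn were varied. Figures were drawn with matplotlib 3.10.9 in Python 3.11.15.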

Additional observations from a re-analysis of the deposited data

Results flagged for a closer look

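The change on dedifferentiation was set against that of adipocytes, as (DFOG minus GC) minus (DFAT minus MA) in the same limma fit, and the 5 largest differences each way among genes also called in DFOG minus GC are given here. They were picked for their size from 1973 genes past the test, so they are extremes and not typical sizes. All 10 kept their direction and their call under the 20 alternatives run for them. On the log2 scale the difference was 10.14 for HSD3B1, 7.96 for COL15A1, 7.90 for VCAM1, 6.98 for RGCC and 6.88 for CCL2. It was -10.64 for IGFBP2, -9.03 for SERPINE2, -8.43 for HSD17B1, -7.98 for DAPL1 and -7.95 for VCAN. For HSD17B1 and DAPL1 nearly all of the difference came from the granulosa cells, since their changes in adipocytes were 0.03 and -0.18. For VCAN the adipocytes gave most of it, with 6.75 there and -1.20 in granulosa cells. For IGFBP2 both cell types contributed, with 5.24 in adipocytes and -5.40 in granulosa cells. MA came from fat tissue and DFAT from ceiling culture, so cell type and culture method cannot be told apart in these differences.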

How the results depend on the processing

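None of the 2070 genes was called in the opposite direction under any alternative, and the number that kept their call ran from 1263 without DFOG 1 to 2068 with DFOG 2 and 3 kept apart. Leaving out 1 sample at a time gave 3586 to 6177 probe sets (1944 to 3076 up, 1642 to 3101 down) and 1284 to 2078 genes (760 to 1203 up, 524 to 910 down). In the lists these fits gave 25 to 30 smooth muscle genes up and 0 to 1 down, 9 to 10 collagen genes up, 7 to 9 steroid genes down and 1 to 3 up, 1 to 3 mitosis genes down, and 2 to 3 epithelial genes up. The difference of changes was called in 4130 to 5899 probe sets. Without DFOG 1 the single DFOG sample is assumed to vary like the other groups.

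Centring on the poly-A controls moved most: 10252 probe sets were called (1193 up, 9059 down), 471 genes rose and 2488 fell, the difference of changes was called in 16598 probe sets, and 9 epithelial, 3 smooth muscle, 3 collagen and 16 mitosis genes fell. Among named genes it reversed CREM (-0.11), EGFL7 (-0.17), IBSP (-0.16), PSMD2 (-0.081), PSME2 (-0.0073) and RPSA (-0.18). The mean over probe sets reversed CREM (-0.22) and gave 2 smooth muscle genes that fell. The mitosis genes that fell numbered 3, against 7 with DFOG 2 and 3 kept apart, 10 in the fit of GC and DFOG alone, 8 with array weights and 8 with the replicate block. With probe sets of a mean level of at least 5 only, 11 of the 21 epithelial genes were left, of which 0 rose and 1 fell. The 3 epithelial genes that rose in the main fit were removed by this filter on the mean over all samples, so they were not tested in it. With the actin control as a covariate 776 genes rose. At an adjusted p of 0.01 there were 3772 probe sets. The cause of these shifts was not tested.

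The labels number the samples 1 to 3 in each group. Deviations of same-numbered GC and DFOG samples correlated (r = 0.60, 0.51 and 0.36). GC 2 with DFOG 3 gave 0.51 and GC 3 with DFOG 2 gave 0.34, so these values do not tell numbers 2 and 3 apart. DFOG 2 and 3 are nearly identical and count as 1 sample, so the numbers were not taken as pairs. The fit with the replicate block, on 12 arrays kept apart, called 7725 probe sets (3752 up, 3973 down), 2638 genes and 7020 differences, and 2065 of the 2070 genes kept their call. CCND2 and COL4A2 passed in it (limma adjusted p = 0.0185 and 0.0261).

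DFOG counts 2 samples, and in the simulation 31% of the 2-fold changes were recovered. That simulation changed far fewer probe sets than the 24.9% called here, so its share need not hold for these data. Low levels could not be told from background, and the array reads near-identical gene copies together.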

Other observations

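The genes below stand on none of the lists and were chosen after their values were seen. Of 5838 such genes 53 rose at least 16-fold and 17 fell at least 16-fold. Each gene named here kept its direction and its call under the 16 alternatives run for it, except where an alternative could not read it.

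Some enzymes of amino acid and purine synthesis were among these genes. No list of their pathways was formed, so the genes stand for themselves. PSAT1, the aminotransferase of serine synthesis, lay at 6.97, 6.69 and 7.60 in GC and at 10.56 and 11.66 in DFOG (4.02 ± 0.33 SE, limma adjusted p = 6.78e-06), and PSPH, the phosphatase after it, at 7.47, 7.26 and 7.34 in GC and at 9.62 and 9.59 in DFOG (2.25 ± 0.18). PYCR1, the last step to proline, an amino acid rich in collagen, lay at 7.14, 6.67 and 6.56 in GC and at 10.32 and 9.64 in DFOG (3.19 ± 0.24). BCAT1, which passes on the nitrogen of branched amino acids, rose by 2.91, MTHFD2, a mitochondrial folate enzyme, by 2.05, and SLC1A1, a glutamate transporter, by 5.91. In none of these genes did a GC sample overlap a DFOG sample, as in 57% of all genes. PPAT, the first step of purine synthesis, lay at 9.71, 9.48 and 9.81 in GC and at 5.39 and 6.15 in DFOG (-3.90 ± 0.23 SE, limma adjusted p = 5.27e-07), and PAICS, a later enzyme of it, at 10.62, 10.22 and 10.48 in GC and at 7.37 and 7.64 in DFOG (-2.93 ± 0.27).

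SCG2, a granin of hormone-storing granules, lay at 3.52, 3.82 and 3.56 in GC and at 8.58 and 8.89 in DFOG (5.11 ± 0.30 SE, limma adjusted p = 5.44e-07) and the granin CHGB rose by 3.56, while CHGA lay at 9.26, 8.02 and 8.65 in GC and at 6.66 and 6.53 in DFOG (-2.05 ± 0.29). TRH, the hypothalamic releasing hormone, rose from 3.95 to 7.97. The 2 methionine sulfoxide reductases named MSRB3 and MSRB2 exchanged, with MSRB3 at 5.18, 4.81 and 4.76 in GC and at 11.13 and 10.79 in DFOG (6.04 ± 0.24) and MSRB2 at 11.57, 11.35 and 11.27 in GC and at 6.17 and 6.64 in DFOG (-4.99 ± 0.41). The hyaluronan synthase SHAS2, which cumulus cells use to build their matrix, rose by 5.37, and CLDN6, a claudin of embryonic epithelia, by 5.72. DAB2, an endocytic adaptor, rose by 6.04, CCDC80, a matrix protein, by 5.91, AEBP1, a collagen-binding protein, by 4.77, GSN, the actin-cutting gelsolin, by 4.26, and LMNA, the lamin of stiff nuclei, by 2.82. Among the genes that fell, SLC6A4, the serotonin transporter, lay at 7.43, 7.63 and 8.68 in GC and at 4.11 and 4.37 in DFOG (-3.67 ± 0.34), NPY2R, a neuropeptide Y receptor, fell by 4.47, CITED1, a transcriptional co-activator, by 4.01, S1PR1, a sphingosine phosphate receptor, by 3.64, and CD55, which restrains complement, by 3.48. SFTPC, known as a lung surfactant protein, lay at 11.35, 11.49 and 10.65 in GC and at 6.74 and 6.57 in DFOG (-4.51 ± 0.25), and AKAP7, an anchor of protein kinase A, fell by 4.92.

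Among gene families formed by the start of their symbols, zinc finger genes (ZNF) stood at 2 up and 16 down of 48 measured (37.5% called, median -0.40), against 30.6% of all genes called. The TMEM genes stood at 17 up and 18 down of 91 (38.5% called). Solute carriers (SLC) stood at 25 up and 10 down of 123 (28.5% called). Of 11 S100 genes 3 rose and 2 fell (45.5% called), and of 15 ARHG genes 5 rose (33.3% called). Of 11 tetraspanin genes (TSPAN) 5 rose and 1 fell, and of 5 annexin genes (ANXA) 4 rose. These families were formed after the data had been seen and carry no test.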
